A study of Mus musculus with 6 samples.

Results

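Genes of the urea cycle and of amino acid breakdown were examined in mouse liver after sulfasalazine, an anti-inflammatory drug that gut bacteria cleave to release sulfapyridine and aminosalicylate. The members were 42 genes chosen by name, each taken as the deposited locus that carries its gene symbol and an Ensembl transcript, out of 42612 loci in the table. The symbol found 41 of them, and Aldh4a1 was found through its transcripts in a locus labelled with another name. The 3 sulfasalazine livers came from male ICR mice, an outbred stock, labelled as 8 weeks old and given 1000 mg/kg in 0.1% DMSO by oral gavage for 4 weeks. The 3 control livers came from male ICR mice of the same age given the DMSO vehicle alone. Each treatment group held 10 animals, and the labels do not say whether a library is 1 animal, so p-values measure the spread between these 3 livers per group. The series title names the question as the transcripts behind liver injury by the drug.

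The urea cycle turns ammonia into urea, starting in hepatocyte mitochondria and ending in the cytosol, and it is most active in periportal hepatocytes, those near the incoming blood. Liver is also the main site where tyrosine, tryptophan, histidine, proline, glycine, serine and lysine are degraded, while branched-chain amino acids are transaminated largely in other tissues and their ketoacids are oxidised in liver. Aminotransferases move the amino groups to glutamate or aspartate, from which they enter the cycle. Alanine and aspartate aminotransferase activities in serum are the usual laboratory signs of hepatocyte damage, and the values here are liver RNA, not serum activity.

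Expression is given as FPKM, fragments per kilobase of transcript scaled to the mapped fragments of the library, a level per length that allows genes to be compared. Fold changes are differences of log2(FPKM + 1), sulfasalazine minus control, tested with limma over the 11969 loci that reached 1 FPKM in 3 or more libraries, and a call needs an adjusted p below 0.05. All 42 members passed the filter on low values. FPKM summed to 224434 to 260047 per library. The step that 1 read adds at low loci put the depth of the other 5 libraries at 0.678 to 0.954 of control liver 2. By this estimate sulfasalazine liver 2 was the shallowest. Loci at 1 FPKM or more numbered 15903 in that library and 15838 in control liver 1. The remaining libraries, from both groups, had 12391 to 13452, and the cause of this difference was not tested. Libraries of the same group correlated over the tested loci at 0.901 to 0.919 (Pearson), and libraries of different groups at 0.896 to 0.914. Alb, the hepatocyte marker albumin, was at 14959 to 17553 FPKM in sulfasalazine livers and 14702 to 18897 FPKM in control livers. It is 1 of 6 hepatocyte markers examined, of which 1 had a positive and 5 a negative fold change, with a median of -0.26.

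No member of the urea cycle or of amino acid breakdown was called in either direction. By limma, 0 of 42 members passed upward, where 0.0167% of all tested loci did, and 0 passed downward, where 0% did. At an unadjusted p under 0.05, 1 member was higher, Tdo2, against 3.64% of all tested loci, and 2 were lower, Got1 and Kynu, against 3.87%. The lowest adjusted p of a member was 0.419, for Tdo2. Fold changes were positive for 18 members and negative for 24, with a median of -0.11, beside a median of -0.00206 over all tested loci. They were within 0.5 on the log2 scale for 36 of the 42. The 3 sulfasalazine values lay above all 3 control values in 3 members (Tdo2, Ivd and Amdhd1), a separation seen in 6.71% of all tested loci. They lay below all 3 control values in 4 members (Got1, Kynu, Uroc1 and Hal), a separation seen in 6.46% of all tested loci. These counts are 7.14% and 9.52% of the members, near the shares over all loci. In bulk tissue, fewer hepatocytes and less RNA per hepatocyte cannot be told apart.

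**Figure D1:**
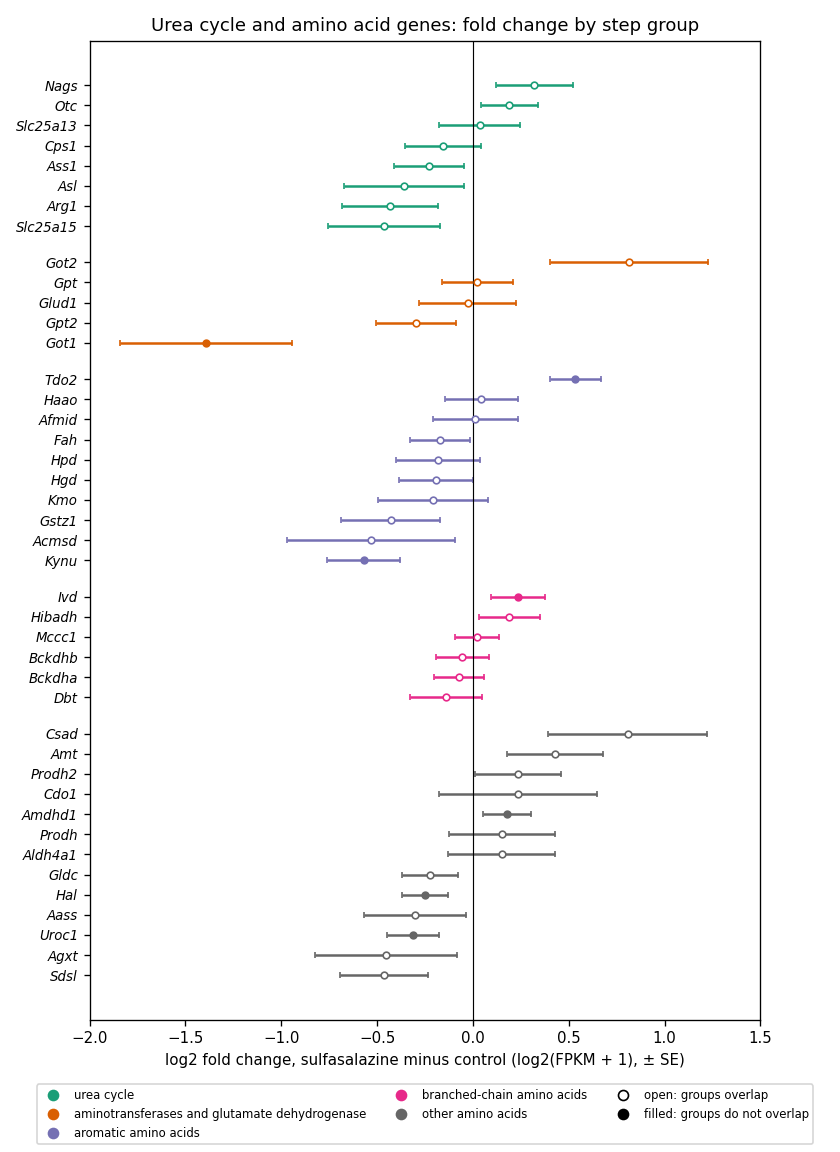
Log2 fold change of each of the 42 members on the horizontal axis, sulfasalazine minus control on the log2(FPKM + 1) scale, with bars for the SE from limma, ordered by step group. Filled points mark the 7 members whose 3 sulfasalazine and 3 control values do not overlap. Most points lie within 0.5 of 0, and Got1 at -1.39 and Got2 at 0.82 are the farthest from it.

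The members covered a wide range of levels. Cps1 was the most abundant at a mean of 772 FPKM over the 6 livers, and Mccc1, a subunit of methylcrotonyl-CoA carboxylase in leucine breakdown, was the lowest at 2.65 FPKM. The median member had 30.8 FPKM, beside a median of 3.001 FPKM over all tested loci. Means were above 100 FPKM for 7 members (Cps1, Hpd, Cdo1, Ass1, Arg1, Haao and Glud1) and below 10 FPKM for 6.

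Promoter sequences are shown for 5 of the 7 members whose groups do not overlap, the genes the values below turn on. Each window runs from 250 bases before to 50 bases after the RefSeq start on GRCm38.p6 and is written 5′ to 3′ along the gene. Got1 lies at chr19:43524556-43524855 on the minus strand, Tdo2 at chr3:81975679-81975978 on the minus strand and Uroc1 at chr6:90333039-90333338 on the plus strand. Hal lies at chr10:93488518-93488817 on the plus strand and Amdhd1 at chr10:93539984-93540283 on the minus strand. For Tdo2 the RefSeq start is 474 bases from the nearest GENCODE M21 start, and for the others the starts are the same. Capitals mark matches on either strand to 4 motifs. The first is TATAAA, the letters of the TATA box, marked at any position in the window. The next is the CCAAT box. The others are TGTTCT, a single arm of the element of the glucocorticoid receptor, and a C/EBP-like motif, TTGCNNAA.
Got1: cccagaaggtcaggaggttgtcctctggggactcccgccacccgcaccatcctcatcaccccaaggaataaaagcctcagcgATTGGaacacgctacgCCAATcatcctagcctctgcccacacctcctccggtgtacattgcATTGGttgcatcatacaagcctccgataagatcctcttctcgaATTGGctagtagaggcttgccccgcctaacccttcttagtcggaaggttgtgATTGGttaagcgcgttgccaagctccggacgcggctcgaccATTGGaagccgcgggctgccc
Tdo2: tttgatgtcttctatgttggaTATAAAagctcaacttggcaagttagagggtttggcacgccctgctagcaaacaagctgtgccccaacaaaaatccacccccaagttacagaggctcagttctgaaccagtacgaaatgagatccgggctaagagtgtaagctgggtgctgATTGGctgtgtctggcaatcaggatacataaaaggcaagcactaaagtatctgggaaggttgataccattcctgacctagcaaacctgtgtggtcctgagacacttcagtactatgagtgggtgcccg
Hal: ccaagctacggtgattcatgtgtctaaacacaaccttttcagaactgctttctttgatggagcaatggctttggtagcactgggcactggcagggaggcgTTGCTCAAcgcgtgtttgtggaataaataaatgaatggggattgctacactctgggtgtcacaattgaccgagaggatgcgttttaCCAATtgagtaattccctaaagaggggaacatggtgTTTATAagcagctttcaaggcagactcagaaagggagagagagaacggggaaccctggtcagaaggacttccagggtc
Uroc1: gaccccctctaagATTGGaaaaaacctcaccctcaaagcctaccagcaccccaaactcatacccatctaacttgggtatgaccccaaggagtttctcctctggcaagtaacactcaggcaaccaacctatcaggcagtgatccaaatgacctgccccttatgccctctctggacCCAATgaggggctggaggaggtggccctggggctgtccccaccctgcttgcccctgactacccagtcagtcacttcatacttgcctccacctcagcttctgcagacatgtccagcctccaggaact
Amdhd1: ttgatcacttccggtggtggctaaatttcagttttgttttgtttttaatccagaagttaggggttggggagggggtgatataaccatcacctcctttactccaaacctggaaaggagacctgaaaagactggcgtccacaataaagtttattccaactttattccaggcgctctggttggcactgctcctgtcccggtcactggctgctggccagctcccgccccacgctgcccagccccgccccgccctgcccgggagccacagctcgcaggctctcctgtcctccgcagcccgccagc
The Got1 window holds 6 CCAAT matches, counting both strands. In the Tdo2 window the TATAAA match starts at position -229, far from the RefSeq start. The Hal window holds a TATAAA match on the minus strand from position -28, a CCAAT match and a C/EBP-like match, and the Amdhd1 window holds no match to these letters. TGTTCT is in none of these 5 windows. The letters CCAAT occur in 37.4% of the 32851 promoter windows of the same length, TATAAA in 13.6%, TGTTCT in 19.0% and the C/EBP-like motif in 10.8%. Of 34 members with a window, 17 held CCAAT, and each of the other motifs was in 4.

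The enzymes of the urea cycle showed no called change, and their groups overlapped in 8 of 8 members. Groups also overlapped at most of all tested loci, with 6.71% separated upward and 6.46% downward. The fold changes of the 8 members were positive in 3 and negative in 5, with a median of -0.19. Cps1, the mitochondrial carbamoyl phosphate synthetase that admits ammonia to the cycle, had 605, 843 and 744 FPKM in sulfasalazine livers, against 902, 674 and 863 FPKM in control livers. The lowest value was in a sulfasalazine liver and the highest in a control liver, with the others interleaved. Its log2 fold change was -0.16 (95% interval -0.63 to 0.32; limma, adjusted p = 0.885), and the sign turned to 0.09 under quantile normalization. Cps1 is a protein-coding gene on the plus strand, between 67123026 and 67231259 on chromosome 1 (GRCm38).

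Otc, ornithine transcarbamylase, makes citrulline from carbamoyl phosphate in the mitochondrion. It had 41.8, 49.2 and 44.9 FPKM in sulfasalazine livers, against 34.0, 42.4 and 42.8 FPKM in control livers, a difference of 0.19 (95% interval -0.17 to 0.55). Nags, which makes the N-acetylglutamate that activates the synthetase, averaged 8.73 ± 1.48 FPKM in sulfasalazine livers and 6.86 ± 1.69 FPKM in control livers (SD, n = 3 each). Both of these mitochondrial members had positive fold changes, and for Nags too the 95% interval, -0.17 to 0.81, held both signs.

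The cytosolic members had negative fold changes, and control liver 1 was the highest of the 6 livers in each of them. Ass1, argininosuccinate synthetase, had 224, 239.7 and 275 FPKM in sulfasalazine livers, against 327, 235 and 309 FPKM in control livers. Arg1, the arginase that releases urea, had 165, 201 and 164 FPKM in sulfasalazine livers, against 339.8, 200.2 and 198 FPKM in control livers. Apart from control liver 1, the Arg1 values of the groups lay side by side: its log2 fold change was -0.43 with all livers and -0.18 without that one. Asl, argininosuccinate lyase, averaged 47.5 ± 5.25 FPKM in sulfasalazine livers and 64.9 ± 29.1 FPKM in control livers (SD, n = 3 each). For Asl the log2 fold change was -0.36 with control liver 1 and -0.02 without it.

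Carriers link the mitochondrial and cytosolic parts. Slc25a15, the ornithine and citrulline exchanger, averaged 8.32 ± 3.21 FPKM in sulfasalazine livers and 11.7 ± 3.23 FPKM in control livers (SD, n = 3 each). Slc25a13, the aspartate and glutamate carrier citrin, averaged 11.6 ± 2.20 FPKM in sulfasalazine livers and 11.3 ± 2.53 FPKM in control livers (SD, n = 3 each). Both differences were within the spread between livers.

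**Figure D2:**
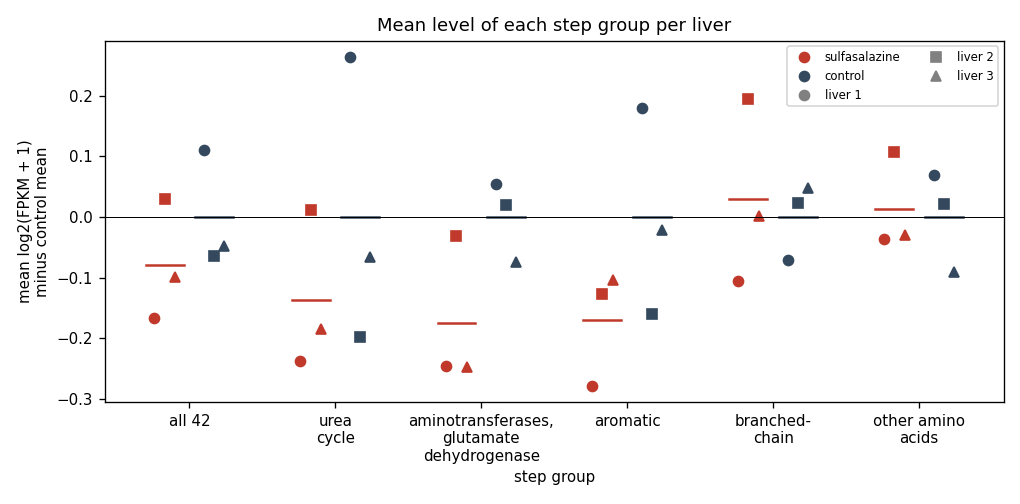
Mean of log2(FPKM + 1) over the members of each step group, relative to the control mean, for each liver, with bars for the group means. In the urea cycle the points run from -0.24 to 0.01 in sulfasalazine livers and from -0.20 to 0.26 in control livers, with control liver 1 at the top.

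Among the enzymes that feed nitrogen to the cycle, the cytosolic and mitochondrial aspartate aminotransferases had fold changes of opposite sign. Got1, the cytosolic enzyme, had 21.05, 29.6 and 33.0 FPKM in sulfasalazine livers, against 144, 43.3 and 63.6 FPKM in control livers. All 3 sulfasalazine values lay below all 3 control values, and control liver 1 was by far the highest. Its log2 fold change of -1.39 had an SE of 0.45 (limma, unadjusted p = 0.0206 and adjusted p = 0.571), and it was -0.91 without control liver 1. Over the fits that leave out 1 liver and keep the tested loci it lay between -1.77 and -0.91. Got1 lies on chromosome 19 from 43499752 to 43524605 in GRCm38, on the minus strand.

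Got2, the mitochondrial enzyme, had 67.6, 72.4 and 71.0 FPKM in sulfasalazine livers, against 28.0, 78.9 and 27.7 FPKM in control livers. The sulfasalazine livers were close together, while control liver 2 lay above them and the other controls far below. The groups therefore overlapped, with a log2 fold change of 0.82 and an SE of 0.41 (limma, adjusted p = 0.731). It was 0.57 without control liver 1 and 1.31 at the top of the range over the fits that leave out 1 liver.

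Glutamate dehydrogenase and the alanine aminotransferases differed less. Glud1, which releases ammonia from glutamate, had 136, 205 and 116 FPKM in sulfasalazine livers, against 126, 158 and 173 FPKM in control livers. Gpt, the cytosolic alanine aminotransferase, had 24.6, 37.9 and 26.6 FPKM in sulfasalazine livers, against 29.0, 27.9 and 29.2 FPKM in control livers. The control values of Gpt were nearly equal and lay within the range of the sulfasalazine values, for a log2 fold change of 0.02 (95% interval -0.43 to 0.47). Gpt2, the mitochondrial form, averaged 16.0 ± 4.56 FPKM in sulfasalazine livers and 19.4 ± 1.93 FPKM in control livers (SD, n = 3 each). The 5 members of this step group had a median of -0.03, with 2 positive and 3 negative.

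**Figure D3:**
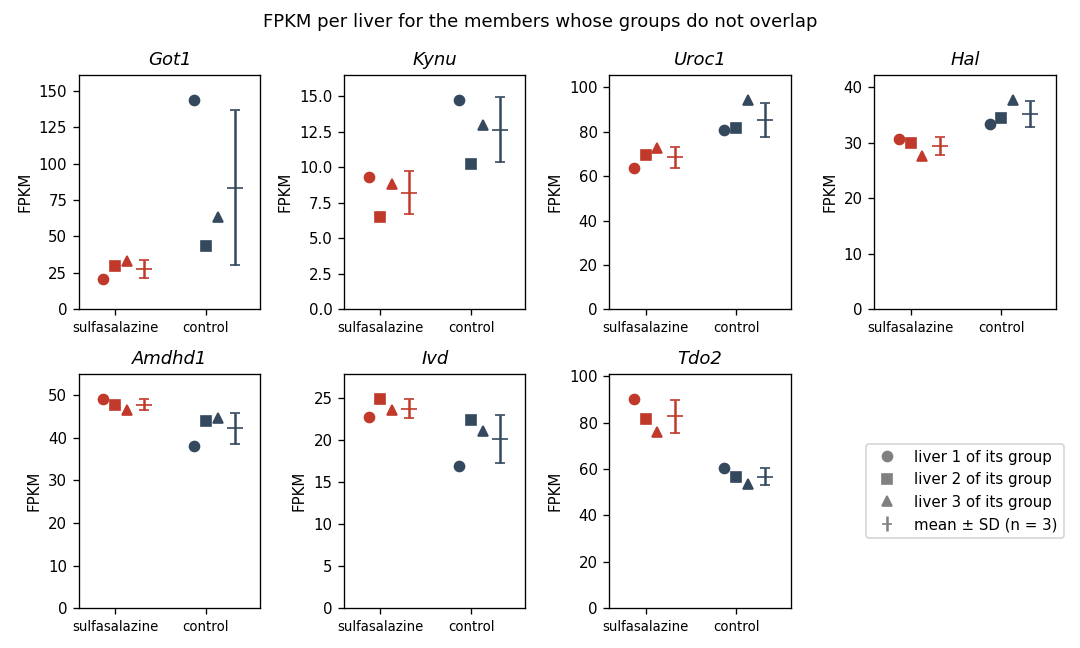
FPKM in each liver, on axes from 0, for the 7 members whose groups do not overlap, with sulfasalazine left of control and bars for mean ± SD. Got1 shows the largest ratio between the group means, with values from 21.05 to 33.0 FPKM in sulfasalazine livers and 43.3 to 144 FPKM in control livers, while Ivd has 23.6 FPKM as its middle sulfasalazine value and 22.4 FPKM as its top control value.

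Of the aromatic steps, tryptophan dioxygenase was the member with the smallest p. Tdo2 opens the indole ring of tryptophan and is the rate-limiting enzyme of the kynurenine route in liver. It had 90.3, 81.6 and 76.2 FPKM in sulfasalazine livers, against 60.4, 56.4 and 53.4 FPKM in control livers. Every sulfasalazine liver lay above every control liver. Its log2 fold change of 0.53 had an SE of 0.13 (limma, unadjusted p = 0.00663 and adjusted p = 0.419), and it stayed between 0.47 and 0.59 when any 1 liver was left out. Tdo2 lies on chromosome 3 from 81957090 to 81976202 in GRCm38, on the minus strand.

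The later steps of the kynurenine route did not share the sign of Tdo2 throughout. Kynu, kynureninase, which cleaves kynurenine and hydroxykynurenine, had 9.29, 6.47 and 8.84 FPKM in sulfasalazine livers, against 14.8, 10.2 and 12.99 FPKM in control livers. All sulfasalazine values lay below all control values, with a log2 fold change of -0.57 and an SE of 0.19 (limma, unadjusted p = 0.0233 and adjusted p = 0.584). Kynu lies on chromosome 2 from 43555329 to 43682715 in GRCm38, on the plus strand.

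Between them, Afmid, the formamidase that releases kynurenine, averaged 9.04 ± 1.87 FPKM in sulfasalazine livers and 9.04 ± 2.49 FPKM in control livers (SD, n = 3 each), at a locus that also holds transcripts of Syngr2. Kmo, the monooxygenase that hydroxylates kynurenine, averaged 20.5 ± 3.99 FPKM in sulfasalazine livers and 24.6 ± 9.32 FPKM in control livers (SD, n = 3 each). These intermediate steps differed by less than the SD of the control livers.

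Haao, which opens the ring of hydroxyanthranilate, had 129, 183 and 164 FPKM in sulfasalazine livers, against 151, 175 and 133 FPKM in control livers. Acmsd diverts the product of Haao away from NAD synthesis, and it had 3.78, 1.64 and 3.27 FPKM in sulfasalazine livers, against 8.48, 2.15 and 4.45 FPKM in control livers. Its log2 fold change was -0.53 with all livers and -0.13 without control liver 1. An assembled locus that also bears the name Acmsd but no Ensembl transcript had 3.68, 3.85 and 1.96 FPKM in sulfasalazine livers, against 0.601, 2.78 and 3.15 FPKM in control livers. At this further Acmsd locus the log2 fold change was positive, at 0.47 (limma, adjusted p = 0.858).

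Tyrosine breakdown had 4 members with negative fold changes between -0.43 and -0.17, and their groups overlapped, as at most of all tested loci. Hpd, hydroxyphenylpyruvate dioxygenase, had 289, 379 and 334 FPKM in sulfasalazine livers, against 494, 329.6 and 329 FPKM in control livers. Control liver 1 alone stood above the range of the sulfasalazine livers, and the log2 fold change of -0.18 became 0.01 without it. Hgd, which opens the homogentisate ring, averaged 50.1 ± 6.40 FPKM in sulfasalazine livers and 58.0 ± 11.6 FPKM in control livers (SD, n = 3 each). Gstz1, maleylacetoacetate isomerase, averaged 24.6 ± 8.65 FPKM in sulfasalazine livers and 32.4 ± 3.97 FPKM in control livers (SD, n = 3 each). Fah, the hydrolase that ends the route, averaged 72.3 ± 10.5 FPKM in sulfasalazine livers and 81.0 ± 5.06 FPKM in control livers (SD, n = 3 each). Over the 10 aromatic members 3 fold changes were positive and 7 negative, with a median of -0.19.

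**Figure D4:**
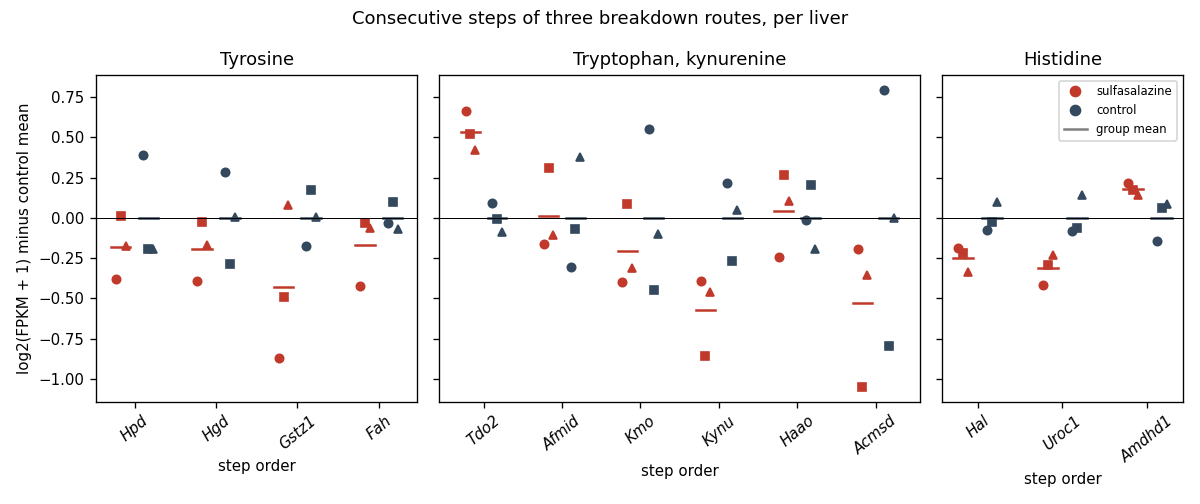
Log2(FPKM + 1) of each liver relative to the control mean, for consecutive steps of tyrosine, tryptophan and histidine breakdown, with bars for the group means. Tdo2 and Amdhd1 lie above the control livers and Kynu, Hal and Uroc1 below them, while the groups overlap at the other steps.

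Branched-chain steps had fold changes from -0.14 to 0.24 over 6 members. Their median of -0.02 had no settled sign, being -0.0833 without sulfasalazine liver 2 and 0.0519 without sulfasalazine liver 1. Bckdha, a subunit of the ketoacid dehydrogenase that commits these amino acids to oxidation, had 80.5, 89.4 and 78.1 FPKM in sulfasalazine livers, against 85.4, 93.2 and 82.3 FPKM in control livers. Its log2 fold change was -0.07 (95% interval -0.39 to 0.25), so a change of more than 0.39 on that scale in either direction lay outside the interval. The other subunits also overlapped between groups. Bckdhb averaged 14.0 ± 1.64 FPKM in sulfasalazine livers and 14.6 ± 1.44 FPKM in control livers, and Dbt averaged 14.9 ± 3.38 FPKM in sulfasalazine livers and 16.3 ± 2.05 FPKM in control livers (SD, n = 3 each). Bckdhb also lends its name to 11 further assembled loci with no Ensembl transcript, each at or below 2.89 FPKM.

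Ivd, isovaleryl-CoA dehydrogenase of leucine breakdown, had 22.8, 25.0 and 23.6 FPKM in sulfasalazine livers, against 16.98, 22.4 and 21.1 FPKM in control livers. The groups did not overlap, but sulfasalazine liver 1 and control liver 2 were close, and the log2 fold change was 0.24 (limma, adjusted p = 0.780). Without control liver 1 it was 0.12. Mccc1 averaged 2.69 ± 0.389 FPKM in sulfasalazine livers and 2.62 ± 0.120 FPKM in control livers, at a locus that pools a noncoding gene. Hibadh, a dehydrogenase of valine breakdown, averaged 14.9 ± 2.72 FPKM in sulfasalazine livers and 12.8 ± 0.787 FPKM in control livers (SD, n = 3 each).

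The 3 histidine members, 2 lower and 1 higher, are among the 7 members without overlap, a state reached by 6.46% of all tested loci downward and 6.71% upward, and none passed the test. Hal, the histidine ammonia-lyase of the opening step, had 30.7, 30.0 and 27.6 FPKM in sulfasalazine livers, against 33.3, 34.5 and 37.7 FPKM in control livers. Uroc1, the urocanate hydratase of the next step, had 63.5, 69.3 and 72.7 FPKM in sulfasalazine livers, against 80.6, 81.5 and 94.3 FPKM in control livers. For both enzymes each sulfasalazine value lay below each control value. Their log2 fold changes were -0.25 with an SE of 0.12 for Hal (limma, unadjusted p = 0.0823 and adjusted p = 0.726) and -0.31 with an SE of 0.14 for Uroc1 (limma, unadjusted p = 0.0584 and adjusted p = 0.685).

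Amdhd1, the imidazolonepropionase that follows, had 49.2, 47.6 and 46.6 FPKM in sulfasalazine livers, against 38.0, 43.9 and 44.7 FPKM in control livers. Its sulfasalazine values lay above all control values, with a log2 fold change of 0.18 and an SE of 0.13 (limma, adjusted p = 0.816). None of the 3 histidine members changed sign when any 1 of the 6 livers was left out, which groups without overlap cannot do. Of the 42 members, 30 kept their sign in all 6 of these fits. Hal and Amdhd1 are neighbours on chromosome 10 in GRCm38, Hal from 93488768 to 93519304 on the plus strand and Amdhd1 from 93523338 to 93540033 on the minus strand. Uroc1 lies on chromosome 6 from 90333284 to 90364551 on the plus strand. Ftcd, which completes the route and is no member, averaged 38.3 ± 8.64 FPKM in sulfasalazine livers and 49.6 ± 6.17 FPKM in control livers (SD, n = 3 each), and its groups overlapped.

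Proline and hydroxyproline oxidation had positive fold changes, and the means differed by less than the SD of the sulfasalazine livers. Prodh, proline dehydrogenase, averaged 10.5 ± 2.18 FPKM in sulfasalazine livers and 9.65 ± 3.85 FPKM in control livers, and Prodh2, the hydroxyproline enzyme, averaged 21.5 ± 4.76 FPKM in sulfasalazine livers and 18.1 ± 3.66 FPKM in control livers (SD, n = 3 each). Aldh4a1, a later enzyme of both routes, averaged 21.5 ± 7.67 FPKM in sulfasalazine livers and 18.4 ± 0.901 FPKM in control livers. The Aldh4a1 locus pools transcripts of 4 genes, Iffo2 and Tas1r2 among them, so its level cannot be given to Aldh4a1 alone.

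Glycine and serine enzymes gave mixed signs. Agxt, which transaminates glyoxylate to glycine and whose loss causes primary hyperoxaluria in humans, had 14.8, 12.1 and 20.1 FPKM in sulfasalazine livers, against 36.7, 14.1 and 18.6 FPKM in control livers. Control liver 1 was the highest, and the log2 fold change of -0.45 was -0.08 without it. Gldc, a subunit of the glycine cleavage system, averaged 49.2 ± 3.27 FPKM in sulfasalazine livers and 57.8 ± 6.80 FPKM in control livers, while its partner Amt averaged 11.8 ± 1.81 FPKM in sulfasalazine livers and 8.82 ± 3.29 FPKM in control livers (SD, n = 3 each). The Amt locus also holds transcripts of Nicn1. Sdsl, a serine dehydratase-like gene, averaged 2.48 ± 0.811 FPKM in sulfasalazine livers and 3.80 ± 1.09 FPKM in control livers (SD, n = 3 each).

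Lysine and cysteine steps were uneven between livers. Aass, which opens lysine breakdown, averaged 47.0 ± 3.14 FPKM in sulfasalazine livers and 60.7 ± 23.3 FPKM in control livers (SD, n = 3 each), and its log2 fold change of -0.30 was -0.01 without control liver 1. Cdo1, the dioxygenase that commits cysteine to sulfinate, had 360.1, 568 and 215 FPKM in sulfasalazine livers, against 247, 439.8 and 248.6 FPKM in control livers. The spread within each group exceeded the difference between them. Csad, which decarboxylates that sulfinate on the way to taurine, had 87.1, 80.5 and 53.8 FPKM in sulfasalazine livers, against 24.5, 72.6 and 38.1 FPKM in control livers. These Csad values are given because it had the second largest positive fold change among members, 0.81 with an SE of 0.41 (limma, adjusted p = 0.735), a choice made after its values were seen. Sulfasalazine livers 1 and 2 lay above every control, and sulfasalazine liver 3 below control liver 2. The 13 members of this mixed step group had 7 positive and 6 negative fold changes and a median of 0.15.

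The median over the members moved with single livers of both groups. Control liver 1 was the highest of the 6 livers in 15 of 42 members, or 35.7%, where it was the highest in 18.7% of all tested loci. Without it, 19 members were positive and 23 negative. Sulfasalazine liver 1 was the lowest in 15 members, or 35.7%, against 15.5% of all tested loci. The median log2 fold change of all members, -0.107 with every liver, was -0.0364 without sulfasalazine liver 1 and -0.0359 without control liver 1. The aromatic median was -0.0899 without sulfasalazine liver 1 and -0.0929 without control liver 1, and the urea cycle median was -0.0937 without the sulfasalazine liver and -0.0487 without the control liver. The aminotransferase median was 0.0326 without sulfasalazine liver 1 and -0.156 without control liver 1. The median of all members was the most negative without sulfasalazine liver 2, at -0.189. Sulfasalazine liver 2, with the lowest estimated depth, was the highest in 11 members, against 21.05% of all tested loci.

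**Figure D5:**
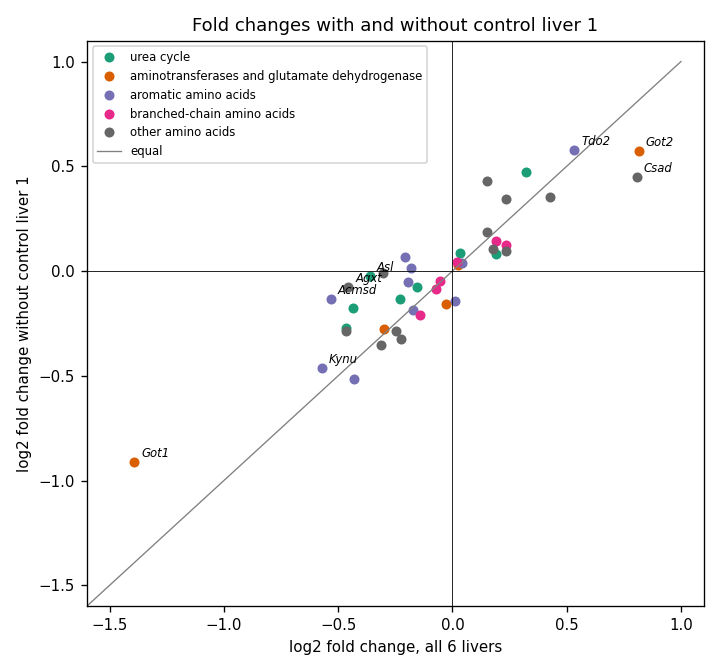
Log2 fold change of each member with all 6 livers on the horizontal axis and without control liver 1 on the vertical axis, coloured by step group, with a line where both are equal. Of the negative members several lie above the line, among them Got1 at -0.91, Acmsd at -0.13 and Asl at -0.02 on the vertical axis.

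Markers of hepatocyte zones and of other liver cells gave the setting for these values. Summed periportal markers, 8 genes, were at 831 to 1535 FPKM in sulfasalazine livers and 1159 to 1191 FPKM in control livers. Of these genes 1 had a positive and 7 a negative fold change, with a median of -0.21, or -0.016 without control liver 1. Summed pericentral markers, 8 genes, were at 1779 to 2633 FPKM in sulfasalazine livers and 1996 to 4386 FPKM in control livers. The top value was control liver 1, in which Cyp1a2 was at 2356 FPKM. The pericentral genes had 4 positive and 4 negative fold changes, with a median of 0.11. The zone markers Sds, Gls2, Glul, Oat and Slc1a2 are also counted among the other pathway genes below. The 6 hepatocyte markers summed to 20420.0 to 22890.2 FPKM in sulfasalazine livers and 20024 to 25839 FPKM in control livers, most of it Alb. In 2 of the 6 all sulfasalazine values lay below all control values, as in 6.46% of all tested loci, and in 0 above. The 8 Kupffer cell markers summed to 101 to 107 FPKM in sulfasalazine livers and 57.2 to 247 FPKM in control livers, with control liver 3 at the top, and the 5 neutrophil markers reached 18.3 FPKM in that liver and 1.29 FPKM or less in the sulfasalazine livers. The 6 sinusoidal endothelial markers summed to 48.2 to 56.2 FPKM in sulfasalazine livers and 41.3 to 48.1 FPKM in control livers, and the 7 stellate cell and matrix markers to 70.7 to 88.2 FPKM in sulfasalazine livers and 99.4 to 121 FPKM in control livers. Those last lists did not overlap between groups in sum, the endothelial one only just, at 48.16 against 48.12 FPKM. Of the endothelial genes 4 had positive and 2 negative fold changes. In 2 of them the groups were separated upward, as in 6.71% of all tested loci. Of the stellate and matrix genes 0 had positive and 7 negative fold changes. In 2 of them the groups were separated downward, as in 6.46% of all tested loci. Cholangiocyte markers, 5 genes, summed to 2.93 to 4.74 FPKM in sulfasalazine livers and 3.59 to 5.87 FPKM in control livers, with Epcam at 0 in sulfasalazine liver 2. Lymphocyte markers, 6 genes, summed to 1.23 to 2.62 FPKM in sulfasalazine livers and 0.923 to 3.43 FPKM in control livers, with Cd79a and Ms4a1 also at 0 in that liver. The part of these cells, zones and depths in the members' values was not tested.

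Other genes of the same pathways, 71 in all, showed no called change either. Of 63 tested, limma called 0 in each direction, 28 had positive and 35 negative fold changes, and the median was -0.01. At an unadjusted p under 0.05, 0 were higher and 2 lower, where 3.64% and 3.87% of all tested loci were. Groups did not overlap in 0 genes upward and in 4 downward, where 6.71% and 6.46% of all tested loci did not, so 4 of 63 is near the share over all loci. Slc43a1, a carrier of branched-chain and aromatic amino acids, had 0.309, 0.654 and 0.779 FPKM in sulfasalazine livers, against 1.605, 1.11 and 1.85 FPKM in control livers (limma, adjusted p = 0.541). Dld, the dihydrolipoamide dehydrogenase shared by the branched-chain and glycine cleavage complexes, had 15.8, 15.4 and 16.3 FPKM in sulfasalazine livers, against 18.5, 21.1 and 20.6 FPKM in control livers (limma, adjusted p = 0.605). Acad8, an acyl-CoA dehydrogenase of valine breakdown, had 6.86, 5.601 and 3.90 FPKM in sulfasalazine livers, against 7.20, 7.76 and 7.22 FPKM in control livers (limma, adjusted p = 0.711). Pcca, a propionyl-CoA carboxylase subunit, was the other gene without overlap.

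By step, the other urea and nitrogen genes had 4 positive and 9 negative fold changes of 13 tested, with a median of -0.16. The other aromatic genes had 7 positive and 5 negative of 12. Tat, which opens tyrosine breakdown, averaged 228 ± 56.3 FPKM in sulfasalazine livers and 311 ± 108 FPKM in control livers (SD, n = 3 each). The other branched-chain genes had 7 positive and 11 negative of 18, with a median of -0.03, and the remaining amino acid genes 10 and 10 of 20, with a median of 0.000517.

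Of 10 regulators linked to these pathways, limma called 0, and 6 had positive and 4 negative fold changes. At an unadjusted p under 0.05, 1 was higher and 0 lower, where 3.64% and 3.87% of all tested loci were. The regulator at that level was Cebpa, a transcription factor of hepatocyte metabolism, named after its values were seen. It had 62.4, 91.6 and 82.2 FPKM in sulfasalazine livers and was listed at 0, 0 and 69.6 FPKM in control livers, so the groups overlapped, and a listed 0 can be a failed estimate. Its adjusted p by limma was 0.648 with all livers and 0.00293 without control liver 3, the control in which it was detected. Hnf4a, a nuclear receptor needed for Otc expression in mouse liver, had 93.9, 93.6 and 86.6 FPKM in sulfasalazine livers, against 75.3, 83.7 and 68.3 FPKM in control livers (limma, adjusted p = 0.730). Atf4, a transcription factor of the amino acid response, had 16.8, 14.8 and 5.35 FPKM in sulfasalazine livers, against 19.0, 22.0 and 20.5 FPKM in control livers (limma, adjusted p = 0.726). In both genes the groups did not overlap, in opposite directions, and neither passed the test. They are the 1 regulator of 10 without overlap upward and the 1 downward, where 6.71% and 6.46% of all tested loci did not overlap.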

How the data were processed

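Liver RNA libraries, depleted of ribosomal RNA per the labels' protocols, gave the FPKM values per locus that the authors deposited, 3 sulfasalazine and 3 control. Tools listed in the submitters' processing notes are StringTie, Bowtie2, FastQC and cutadapt, with the build GRCm38.p5; versions and the annotation release are not given in the sources used here. From the deposited FPKM, log2(FPKM + 1) was tested in R 4.3.3 with limma 3.58.1, letting the variance follow the mean level. P-values were adjusted by Benjamini-Hochberg over 11969 loci. The log2(FPKM + 1) scale understates the change of low genes. The fit was also run on simulated data with changes larger than most seen in the members. That run cannot show what the fit detects at smaller sizes. Names and coordinates come from GENCODE M21 on GRCm38, and promoter sequences from RefSeq on GRCm38.p6. Of the members, 4 lie in loci that pool transcripts of more than 1 gene, and 11 share their name with other assembled loci, which were left out of their values. FPKM keeps no total, so no counting interval can be given. Relative depth was taken as the commonest ratio between libraries at loci below 0.1 FPKM in both. That ratio was found at 82 to 109 loci per library, of 1899 to 2155 compared. The members and lists were chosen with earlier results of these data known, so lists are described by counts and medians and not tested. Livers are shown singly for members whose groups do not overlap, the 2 most abundant per step group and 10 genes set by name; from each list of other pathway genes and regulators, up to 2 without overlap and with the smallest p are named, and other genes were chosen after their values were seen. The alternatives varied the scaling, pseudocount, filter, loci tested, variance model, livers included and replicate block. Plots used Python 3.11.15 and matplotlib 3.10.9.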

Additional observations from a re-analysis of the deposited data

How the results depend on the processing

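The count of 0 members called by limma in either direction held under each of the 23 other settings, in which the lowest adjusted p of a member was 0.152, and 48 of 963 member fold changes had the other sign. Over all loci, 2 were called higher and 0 lower. The higher count became 1 with a pseudocount of 0.1 or 0.01 or a minimum of 0.1 FPKM, 0 when unfiltered, 6 at a minimum of 5 FPKM, 23 without the trend and 9 over loci with an Ensembl transcript; the lower count became 1, 22 and 3 with the last 3 of these. A fit that blocks on replicate number called 0 loci higher. Deviations of same-numbered livers from their group means correlated at 0.00967, -0.0668 and -0.0222, and those of different-numbered livers at -0.028 to 0.0515. With 3 livers per mean, these values cannot exclude a pairing of animals. Leaving out 1 liver gave 1 to 9 loci higher and 0 to 6 lower, a median of -0.166 to 0.0884 for aminotransferases and glutamate dehydrogenase and of -0.109 to 0.159 for the mixed group of other amino acids, and of -0.0833 to 0.0519 for branched-chain steps, so the signs of these medians are not settled. With the tested loci kept the same, a setting added after the data were seen, the count higher was 1 without sulfasalazine liver 3 or control liver 1 and 8 without control liver 3, and the count lower was 2, 6 and 1 without sulfasalazine livers 1, 2 and 3. The aminotransferase median was then -0.156 without control liver 1, and the median of other amino acids was 0.033, 0.048 and -0.025 without sulfasalazine liver 3, control liver 2 and control liver 3. For all of these, the cause was not tested. Absolute depth is unknown, which limits what the low members can show.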

Other observations

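Ratios between consecutive or paired enzymes within a liver do not depend on a common scaling factor per library; these were picked after the values were seen and carry no test. The ratio of Got1 to Got2 FPKM was 0.311, 0.409 and 0.464 in sulfasalazine livers, against 5.14, 0.549 and 2.29 in control livers, so the cytosolic transcript was the less abundant of the pair in all 3 sulfasalazine livers and in control liver 2 alone among controls. The ratio of Tdo2 to Kynu was 9.72, 12.6 and 8.62 in sulfasalazine livers, against 4.09, 5.52 and 4.11 in control livers. In histidine breakdown, the ratio of Uroc1 to Amdhd1 was 1.29, 1.46 and 1.56 in sulfasalazine livers, against 2.12, 1.86 and 2.11 in control livers, and that of Hal to Amdhd1 was 0.624, 0.630 and 0.592 in sulfasalazine livers, against 0.878, 0.785 and 0.843 in control livers. The groups did not overlap in these 4 ratios. Except for Got1 to Got2, this was fixed in advance and adds nothing to the single genes. In those ratios both genes lacked overlap, in opposite directions. The groups overlapped for Csad to Cdo1, Otc to Cps1 and Arg1 to Ass1.

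The controls were uneven in 3 members picked after their values were seen. Got2 was at 67.6, 72.4 and 71.0 FPKM in sulfasalazine livers and at 28.0, 78.9 and 27.7 FPKM in control livers. Csad was at 87.1, 80.5 and 53.8 FPKM in sulfasalazine livers and at 24.5, 72.6 and 38.1 FPKM in control livers. Amt was at 11.0, 10.6 and 13.9 FPKM in sulfasalazine livers and at 7.53, 12.6 and 6.37 FPKM in control livers. Control liver 2 lay within or above the sulfasalazine range in each of these, and the other controls lay below it. Suox, the sulfite oxidase that ends cysteine breakdown, was at 9.35, 2.19 and 16.1 FPKM in sulfasalazine livers and at 15.6, 1.97 and 1.29 FPKM in control livers. An assembled locus named Otc without an Ensembl transcript was at 0, 4.06 and 2.26 FPKM in sulfasalazine livers. In control livers it was at 0, 0.0526 and 0 FPKM. It failed the filter on low values, so it was not tested. Of the 22 further loci that bear member names, groups were separated upward in 0 and downward in 2. Those 2 are named Bckdhb and also failed the filter.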
